A study of Mus musculus with 18 samples.

Results

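The matrix metalloproteases and their tissue inhibitors were followed through a set of mouse gliomas as 10 genes: 7 proteases (Mmp2, Mmp3, Mmp9, Mmp10, Mmp12, Mmp13 and Mmp14) and 3 inhibitors (Timp1, Timp2 and Timp3), out of 36706 gene names in the 3 bulk count tables. They were chosen by name, and all 10 were present in every bulk table and in both single-cell tables. Matrix metalloproteases (MMPs) are zinc-dependent enzymes, made as inactive precursors, that cut collagens, laminins and other matrix proteins. Most are secreted, whereas Mmp14 sits in the cell membrane and activates the Mmp2 precursor. The tissue inhibitors of metalloproteases (TIMPs) bind the active enzymes one to one, so the balance of both families bears on how much matrix is cut. In brain tumours MMPs are known from tumour cells, vessel-associated cells, macrophages and neutrophils.

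The study measured 18 samples of Boy/J mice in 8 groups. Whole tumours driven by HRasV12 and dominant negative p53 came from 4 mice given vehicle (also labelled untreated) and 4 given PLX3397, an inhibitor of the CSF1 receptor on which macrophages and microglia depend, at 100 mg/kg daily by mouth from day 7 after implantation until moribund. CD11b+ cells, pulled with magnetic microbeads from PDGFB-driven tumours of perfused mice, came from 2 mice given PLX3397 at 100 mg/kg and 1 given vehicle, in both cases for 3 days from day 14. Tumour-derived lines were 2 from Ras-driven and 3 from PDGF-driven gliomas, untreated. They were grown in different media: both held EGF and FGF at 20 ng/mL, and that of the PDGF lines also held PDGF-AA, PDGF-BB, B27 and N2. Untreated HRasV12 tumour, dissociated with collagenase, was profiled as single cells in 1 sample by 10x Chromium and 1 by Drop-seq. Each line is 1 culture and each single-cell library 1 sample, and the labels do not say whether the lines came from separate animals.

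A bulk library held from 31.2 M to 35.8 M counts for the Ras tumours, from 26.8 M to 30.9 M for CD11b+ cells and from 31.9 M to 35.8 M for the lines. Levels are given as CPM, a gene's counts scaled to the library's total per M counts and adjusted by TMM within each table, and levels of different genes are compared only as CPM per kilobase of exon. Ddx3y, a Y-linked gene read as a check on the samples, was over 1 CPM in vehicle and PLX3397 tumours 1 and 2. It was below 1 CPM in tumours 3 and 4 of both groups. Xist, an X-linked gene, was at 244 to 721 CPM across all Ras tumours, those with Ddx3y included. Vehicle tumour 4 stood apart from the other 7: its summed astrocyte markers were 480 CPM against 1342 to 4045, and its summed oligodendrocyte markers 62.8 against 344 to 1727. Of the CD11b+ libraries, Itgam, which encodes CD11b, stood at 585 and 810.0 CPM after PLX3397 and 1194 after vehicle, and Csf1r at 1785 and 1581 after PLX3397 and 2033 after vehicle. Replicates of every group that had them differed by more than sampling noise.

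Of the 7 proteases, 4 lie in one stretch of chromosome 9 on the forward strand (GRCm38, GENCODE vM21): Mmp13 at chr9:7272514-7283331, Mmp12 at chr9:7344381-7369499, Mmp3 at chr9:7445822-7455975 and Mmp10 at chr9:7502352-7510240. Their promoters are shown because these neighbours hold the same motifs but differed in place in the 10x single-cell library. That library had most Mmp12 and Mmp13 UMIs in one cluster and most Mmp10 UMIs in another, whereas Drop-seq had only 11 Mmp13 UMIs. Each window runs from 100 bases before to 50 bases after the RefSeq start (GRCm38.p6, forward strand), with matches to TGANTCA, the sequence that AP-1 transcription factors bind, and to TATAAA, the TATA box, in capitals. The Mmp12 window is that of the second of 2 annotated starts.
Mmp13 (chr9:7272414-7272563): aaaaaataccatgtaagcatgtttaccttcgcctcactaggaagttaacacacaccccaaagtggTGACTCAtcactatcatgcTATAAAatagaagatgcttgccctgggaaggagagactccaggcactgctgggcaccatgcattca
Mmp12 (chr9:7347274-7347423): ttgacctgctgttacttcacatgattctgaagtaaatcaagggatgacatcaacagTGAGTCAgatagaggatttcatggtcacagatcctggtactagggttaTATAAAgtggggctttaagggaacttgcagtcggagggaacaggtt
Mmp3 (chr9:7445722-7445871): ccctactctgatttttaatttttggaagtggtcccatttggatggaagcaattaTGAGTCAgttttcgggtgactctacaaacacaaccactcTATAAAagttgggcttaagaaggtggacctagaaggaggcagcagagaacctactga
Mmp10 (chr9:7502242-7502391): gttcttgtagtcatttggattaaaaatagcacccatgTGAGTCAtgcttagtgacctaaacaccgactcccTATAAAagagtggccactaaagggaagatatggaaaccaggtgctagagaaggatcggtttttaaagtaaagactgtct

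For contrast, the membrane protease Mmp14 (gene at chr14:54431612-54445364) and the inhibitor Timp1 (gene at chrX:20870166-20874735) are shown over the same window, both on the forward strand, with matches to the GC box GGGCGG or its reverse complement CCGCCC in capitals.
Mmp14 (chr14:54431498-54431647): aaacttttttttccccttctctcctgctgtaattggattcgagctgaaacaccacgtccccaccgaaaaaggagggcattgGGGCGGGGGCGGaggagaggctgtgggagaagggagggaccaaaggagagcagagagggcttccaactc
Timp1 (chrX:20870066-20870215): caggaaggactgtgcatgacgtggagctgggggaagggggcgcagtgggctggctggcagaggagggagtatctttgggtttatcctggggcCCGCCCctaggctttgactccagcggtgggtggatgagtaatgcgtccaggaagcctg

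Over the full RefSeq windows (250 bases before to 50 after the start), searched on both strands, TGANTCA had its first base at -35 from the start in Mmp13, -44 in Mmp12, -46 in Mmp3 and -63 in Mmp10. Each of these 4 also held 1 TATAAA, which in Mmp12 lay after the start, and none held GGGCGG. The promoters of Mmp14, Timp1, Timp2 (chr11:118301069-118355740, reverse strand) and Timp3 (chr10:86300372-86349506) held 1 or 2 GC boxes each and neither of the other motifs. The first Mmp12 start had none of the 3. Among all 32851 promoter windows of the same length, TGANTCA was in 7.81%, TATAAA on either strand in 13.6%, both in 1.54% and the GC box in 35.7%. In Mmp14 the 2 GC boxes lie end to end without overlap. A match describes the letters in the window and not a bound factor. Only exact matches were searched, so a variant such as tgagtaa in the Timp1 window was not counted.

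**Figure D1:**
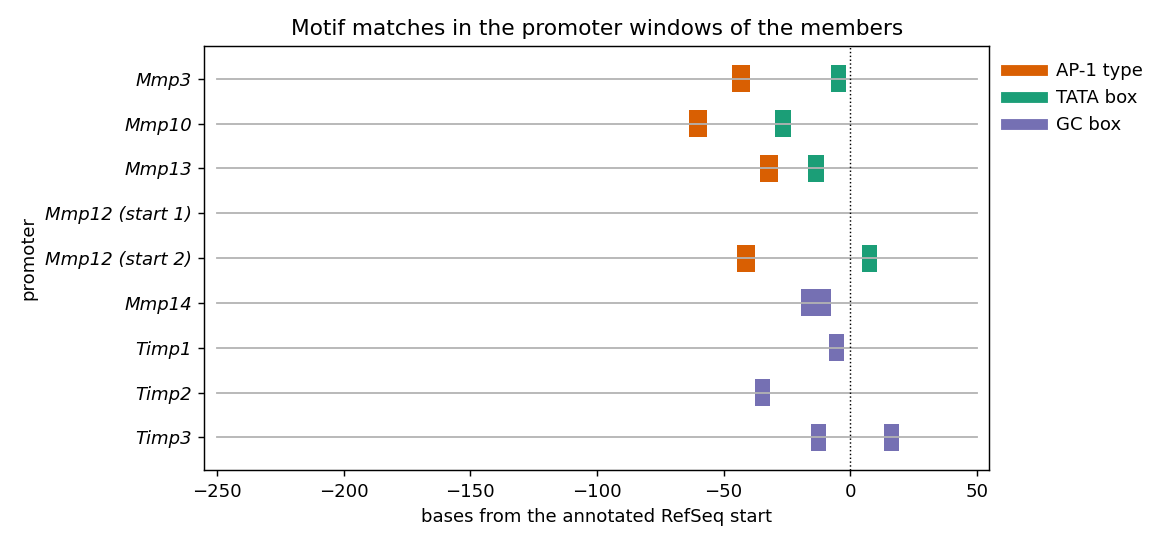
Motif matches in the RefSeq promoter windows of 8 of the 10 members, by distance in bases from the annotated start (0, dotted line); the bars mark AP-1-type, TATA box and GC box matches. The 4 chromosome 9 proteases carry an AP-1-type and a TATA match (Mmp12 at its second start). Of the 3 motifs searched by exact match, Mmp14 and the 3 inhibitors carry only GC boxes.

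Per kilobase of exon, inhibitor RNA was the more abundant side in the Ras tumours. In the vehicle tumours Timp1 led at 358.5 ± 186 CPM per kb (SD, n = 4), followed by Timp2 at 134 ± 22.5, Mmp13 at 105.5 ± 112, Mmp14 at 77.9 ± 20.3, Timp3 at 62.0 ± 15.4 and Mmp9 at 53.4 ± 69.1. Mmp2, Mmp12, Mmp3 and Mmp10 were lower, between 16.6 and 7.44 CPM per kb. Apart from Timp1 and Timp2, neighbours in this order differed by less than the larger of their SDs. Summed per kilobase, the 3 inhibitors were 3.17, 4.12, 1.81 and 1.35 times the 7 proteases in vehicle tumours 1 to 4, and 4.52, 3.08, 2.78 and 3.16 times in PLX3397 tumours 1 to 4, so the groups overlapped. In the CD11b+ cells given vehicle the ratio was 0.21, in 1 library, and in the 2 given PLX3397 it was 1.03 and 0.876. With vehicle Mmp13 led there at 252.8 CPM per kb, ahead of Mmp14 at 127.5 and Mmp12 at 124.

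The single-cell libraries showed which cells carried each gene. The 10x library held 4384 barcodes with 59.3 M UMIs (unique molecular identifiers, which count RNA molecules), of which 3320 barcodes were kept (median 8351 UMIs) in 14 clusters. The Drop-seq library held 5000 barcodes with 9.67 M UMIs, of which 4901 were kept (median 1396) in 8 clusters. They shared 0 cell barcodes. The 10 members were left out of the genes used for clustering, so their levels did not shape the clusters. Each library is 1 sample, so its values carry no test, and the intervals given (exact Poisson for UMIs, exact binomial for shares, 95%) cover counting error alone.

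The gelatinase Mmp9 (gene at chr2:164940780-164955850), which cuts denatured collagen and basement membrane, was concentrated in very few cells. In the 10x library a cluster of 55 barcodes led by Igfbp7 and Mgp held 88.1% of all Mmp9 UMIs, at 4093 CPM (interval 3996 to 4192). That cluster was at least 2-fold above the others for 8 of 8 endothelial, 7 of 8 pericyte and 6 of 7 fibroblast markers, so it carried markers of 3 cell types of the vessel wall and was given no cell type name. Neutrophil-like cells (81 barcodes) came next at 1461 CPM (1315 to 1620), with a Mmp9 UMI in 71.6% of them (60.5 to 81.1). In the dividing cluster led by Mki67 and Top2a, the deepest of the library with a median of 27110 UMIs, 6.48% of barcodes had one, against 49.1% in the Igfbp7 and Mgp cluster (median 24260 UMIs), while the neutrophil-like cells had a median of 3107 UMIs. The 10 barcodes richest in Mmp9 held 70.1% of its UMIs.

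In the Drop-seq library Mmp9 was also concentrated in one cluster. A group of 78 barcodes led by Col1a1 and Igfbp7, 2-fold above the others for 8 of 8 endothelial, 8 of 8 pericyte and 6 of 7 fibroblast markers, held 91.5% of Mmp9 UMIs at 3894 CPM (3594 to 4211). No cluster of that library was named neutrophil-like. Within these 2 clusters, barcodes were divided by whether endothelial markers or pericyte and fibroblast markers together held more of their UMIs. In 10x, Mmp9 was at 7326 CPM (7148 to 7507) in the 29 barcodes richer in pericyte and fibroblast markers and at 436 (390.5 to 485) in the 25 richer in endothelial markers, with 1 barcode equal. Of those 25, 2 barcodes held all 337 UMIs, so the second level rests on them. In Drop-seq all 624 Mmp9 UMIs of the cluster lay in the 61 barcodes of the first kind, at 5106 CPM (4713 to 5523), with 0 in the 17 of the second, which allows up to 97.0 CPM. Of these barcodes 5 in 10x and 3 in Drop-seq lay near the divide, with 40 to 60% of those marker UMIs endothelial.

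Mmp10 (stromelysin 2), which cuts proteoglycans and laminin, followed Mmp9 into those clusters. The Igfbp7 and Mgp cluster held 97.3% of the 10x Mmp10 UMIs at 790.3 CPM (748 to 834), and the Col1a1 and Igfbp7 cluster 94.1% of those in Drop-seq at 1778 CPM (1578 to 1997). In 10x all 17 barcodes of the cluster with an Mmp10 UMI also had one of Mmp9, out of 27 with Mmp9; in Drop-seq 31 of 33 did. The barcodes richer in pericyte and fibroblast markers stood at 1481 CPM (1401 to 1564) in 10x and 2332 (2069 to 2619) in Drop-seq, and those richer in endothelial markers at 9.05 (3.64 to 18.6) and 0. Its chromosome 9 neighbour Mmp3 (stromelysin 1), of similar substrates, was scarce, with 71 UMIs in 17 barcodes of the 10x library. Of these, 27 were in the Igfbp7 and Mgp cluster and 28 in the cluster led by Lcn2 and Crispld2, which carried 5 of 8 astrocyte and 6 of 8 oligodendrocyte markers. In Drop-seq 21 of 26 Mmp3 UMIs came from 1 barcode.

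Mmp12 (macrophage elastase) was concentrated in myeloid cells. The 10x cluster led by Rgs1 and Chil3 (260 barcodes), 2-fold above the others for 8 of 8 monocyte-derived macrophage, 7 of 8 microglia and 7 of 7 pan-myeloid markers, held 93.5% of Mmp12 UMIs at 244 CPM (231 to 257). Only 11.2% of its barcodes had one (7.60 to 15.6), and 1 barcode held 395 of the 1392 UMIs in the library. Leaving out the 5% of barcodes with most UMIs in each cluster took the level to 132 CPM. The cluster led by Ccl22 and Cst7, with 7 of 8 microglia markers, was shallower, at a median of 2579 UMIs against 15502.5. With every barcode thinned to 2000 UMIs, 5.86% (3.32 to 9.48) of the Rgs1 cluster had an Mmp12 UMI. So had 5.68% (2.76 to 10.2) of the Ccl22 cluster, with 4 and 101 shallower barcodes left out. In Drop-seq the cluster led by C1qa and Lyz2 (181 barcodes, 7 of 7 pan-myeloid markers) held 69.8% of Mmp12 UMIs, at 128 CPM (86.3 to 183).

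Mmp13 (collagenase 3), which cuts fibrillar collagens, had 107 UMIs in 10x, 70.1% of them in the same Rgs1 and Chil3 cluster, at 14.0 CPM (11.04 to 17.6), and 19.6% in the Igfbp7 and Mgp cluster. In Drop-seq it had 11. The gelatinase Mmp2 (chr8:92827291-92853420) followed the myeloid clusters in 10x, at 82.0 CPM (74.5 to 90.0) in the Rgs1 and Chil3 cluster and 57.2 (45.4 to 71.0) in the cluster led by Ccl22 and Cst7, which had 7 of 8 microglia markers. Drop-seq, with 129 Mmp2 UMIs, left the order undecided, since intervals overlapped: its C1qa and Lyz2 cluster was at 25.6 CPM (9.39 to 55.7) and the Scg2 and Wfdc18 cluster, with 38.8% of the UMIs, at 19.7 (14.6 to 25.9). Mmp14 was broad: 36.4% of kept 10x barcodes had a UMI, with the Igfbp7 and Mgp cluster highest at 367 CPM (339 to 398), then the Rgs1 and Chil3 cluster at 157 (146 to 168) and the Lcn2 cluster at 143.5 (134.5 to 153). In Drop-seq the Col1a1 and Igfbp7 cluster stood at 992 CPM (844 to 1159) and the C1qa and Lyz2 cluster at 273 (210.3 to 349).

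The highest levels of the 3 inhibitors were in different clusters, leaving aside clusters with few of their UMIs. Timp1, an inhibitor induced in injured and inflamed tissue, reached 2846 CPM (2792 to 2901) in the 10x cluster led by Nppb and Nefl (254 barcodes) and 1013 (989 to 1038) in the Lcn2 and Crispld2 cluster, with 44.9% and 28.4% of its UMIs. Apart from the Alb and Ttr cluster of 38 barcodes, it was lowest in the Rgs1 and Chil3 cluster, at 49.0 CPM (43.3 to 55.3). In Drop-seq the cluster led by Scg2 and Wfdc18 led at 576 CPM (547 to 606). The Nppb and Nefl cluster and the Drop-seq Scg2 cluster had fewer than 3 markers 2-fold up from any list, so neither was named. With every barcode thinned to 2000 UMIs, 71.7% of the Nppb cluster and 10.9% of the Rgs1 cluster had a Timp1 UMI, against 90.6% and 55% before thinning; 35 and 4 shallower barcodes were left out.

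Timp2, which also takes part in Mmp2 activation by Mmp14, was highest in CPM, among clusters with at least 20 of its UMIs, where myeloid markers were: 314 CPM (286 to 345) in the Ccl22 and Cst7 cluster, 266 (252 to 279.9) in the Rgs1 and Chil3 cluster and 252 (192 to 325) in the Drop-seq C1qa and Lyz2 cluster. Timp3, the inhibitor that stays bound to the matrix, was by the same rule highest in the Igfbp7 and Mgp cluster of 10x, at 214.5 CPM (193 to 238), and the Col1a1 and Igfbp7 cluster of Drop-seq, at 462 (363 to 580). In the Rgs1 and Chil3 cluster it stood at 2.81 CPM (1.57 to 4.63). In the Alb and Ttr cluster Timp2 and Timp3 each stood at 373 CPM (186 to 668) on 11 UMIs. At equal depth, Timp2 was not particular to the myeloid clusters of 10x. Thinned to 2000 UMIs, 32.4% of the Ccl22 cluster, 31.1% of the Nppb cluster and 27.0% of the Rgs1 cluster had a Timp2 UMI. Their intervals overlapped, and 101, 35 and 4 shallower barcodes were left out. In Drop-seq, thinned to 500 UMIs, 10.5% (6.44 to 15.9) of the C1qa cluster had one, against at most 2.32% in any other cluster.

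**Figure D2:**
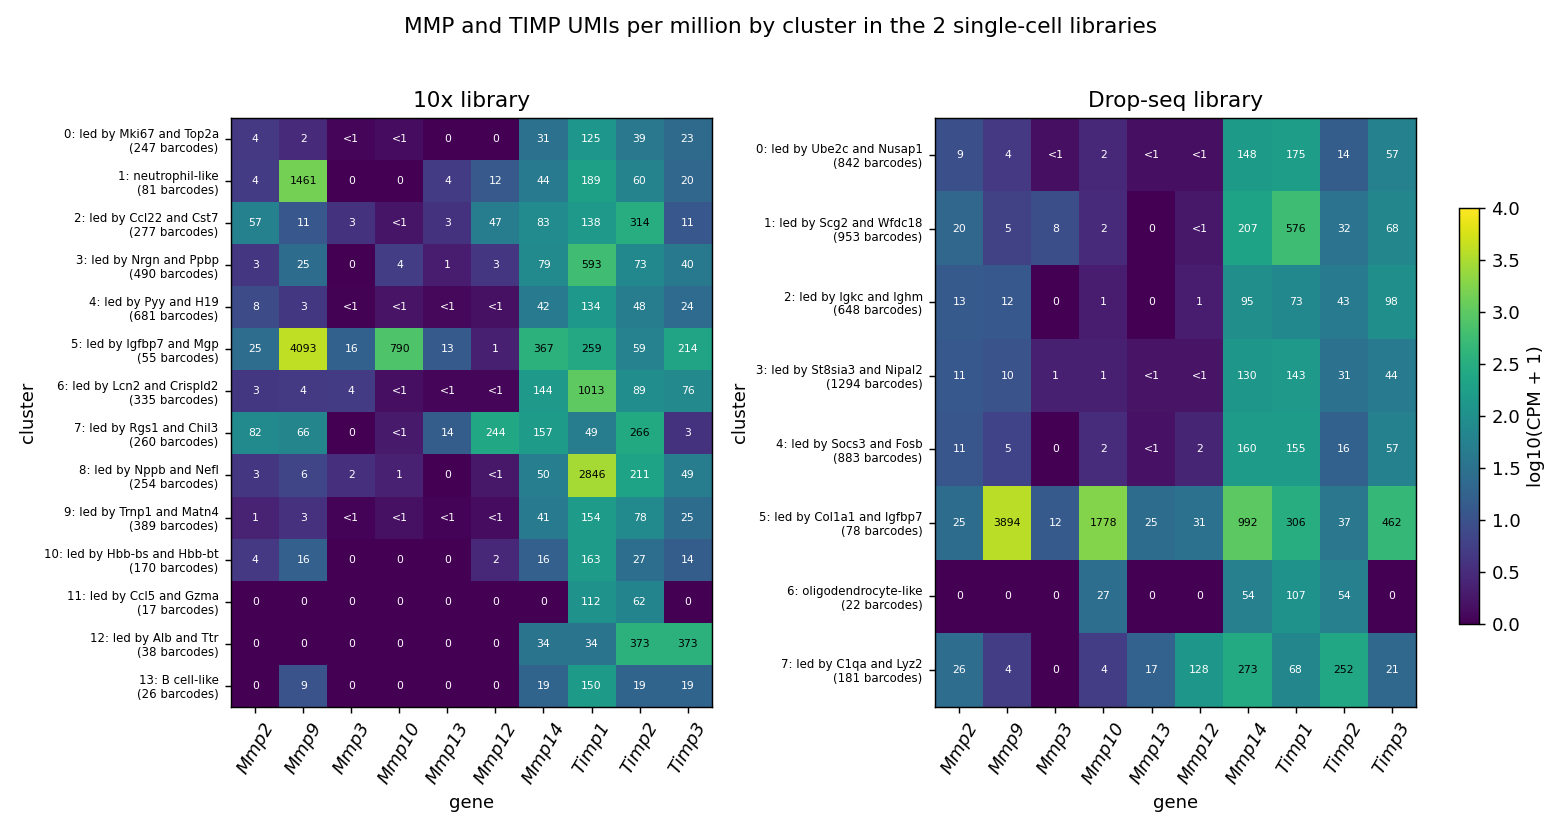
Level in CPM (printed in each cell and coloured as log10(CPM + 1)) of the 10 members in each cluster of the 10x library (left) and the Drop-seq library (right); each row is 1 cluster, named by its 2 leading genes or its markers, with its number of barcodes. Mmp9 and Mmp10 peak in the clusters led by Igfbp7 and Mgp and by Col1a1 and Igfbp7, Mmp12 in the clusters led by Rgs1 and Chil3 and by C1qa and Lyz2, and Timp1 in the clusters led by Nppb and Nefl and by Scg2 and Wfdc18.

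Over the 14 clusters of the 10x library the genes most like each member, by Pearson correlation of log2(CPM + 1), were Gpr55, Lrg1 and Snai1 for Mmp9 (r = 0.933, 0.925 and 0.917) and Grrp1, Heyl and Prg4 for Mmp10 (0.99, 0.989 and 0.986). For Mmp12 they were Xdh, Il6 and Tfec (each 0.977), for Mmp13 Sh3tc1, Nos2 and Xlr, for Mmp2 Hfe, Pla2g15 and Stab1, and for Mmp14 Dusp3, Plod3 and Mgrn1. For the inhibitors they were Dlk1, Klk6 and Wnt2 (Timp1), Spint1, Sgk1 and Igf1 (Timp2), and Tgfb2, Sdc2 and Dlc1 (Timp3, 0.97, 0.968 and 0.952). The points are clusters of 1 library, with its depth in common. Mmp3 had fewer than 100 UMIs and was left out.

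The first bulk comparison asked what CSF1R inhibition did to whole Ras tumours. Of 18366 genes tested with edgeR's quasi-likelihood test, 0 passed an adjusted p of 0.05 (0%), so no member did, while 648 (3.53%) had an unadjusted p under it, among them Mmp3 and Mmp9. DESeq2 called 169 genes (0.92%), of which 2 were members, again Mmp3 and Mmp9. No member had groups that did not overlap, against 0.446% of genes higher and 2.09% lower. The median over the 10 members was -0.15 on the log2 scale and that over all genes 0.0015. In whole tissue, fewer cells of a type and less RNA per cell cannot be told apart.

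Mmp9 was decided by 2 of the vehicle tumours. It stood at 18.2, 14.5, 188 and 535 CPM in vehicle tumours 1 to 4 and at 13.6, 20.8, 14.5 and 11.5 in PLX3397 tumours 1 to 4. All 4 treated tumours and vehicle tumours 1 and 2 shared one low range, and vehicle tumours 3 and 4, which lacked Ddx3y, were high. The log2 fold change was -3.65 (SE 1.12, edgeR adjusted p = 0.791), and between -4.03 and -2.27 with 1 library left out. Among the 4 tumours with Ddx3y the means were 17.2 CPM with PLX3397 and 16.4 with vehicle, and among the 4 without it 13.02 and 362. The difference between those strata was 4.86 on the log2 scale (SE 0.74, edgeR interaction adjusted p = 1; 0 of 18366 genes called, 363 at an unadjusted p under 0.05), a comparison added after the values were seen. Summed markers of the cells that carried Mmp9 in the single-cell libraries are set beside it here. Fibroblast markers were 3261, 2454, 1970 and 4005 CPM in vehicle tumours 1 to 4, pericyte markers 381, 366, 324 and 388, and neutrophil markers 25.6, 25.9, 46.6 and 14.4. Vehicle tumour 4 was thus highest in fibroblast and lowest in neutrophil markers, and vehicle tumour 3 the reverse. Their part in the result was not tested.

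Among the vehicle tumours, Mmp2 and Mmp12 were also highest in tumours 3 and 4. For Mmp2, though, vehicle tumour 3 was level with vehicle tumour 1 and below PLX3397 tumour 2. Mmp12 stood at 38.2, 10.8, 78.3 and 230.2 CPM in vehicle tumours 1 to 4, and at 30.03, 43.2, 15.5 and 28.2 in PLX3397 tumours 1 to 4. Its log2 fold change was -1.61 (SE 0.81, edgeR adjusted p = 1), and -0.525 without vehicle tumour 4, with means of 21.9 and 154 CPM among tumours without Ddx3y and 36.6 and 24.5 among those with it, treated first. Mmp2 stood at 51.6, 15.6, 52.8 and 104 CPM with vehicle and 27.1, 62.1, 27.0 and 22.1 with PLX3397 (-0.70, SE 0.55, edgeR adjusted p = 1; -0.19 without vehicle tumour 4). Both groups overlapped for both genes. Summed pan-myeloid markers were 1330, 983, 1017 and 689 CPM in vehicle tumours 1 to 4 and 753, 494, 141 and 255 in PLX3397 tumours 1 to 4, and their part was not tested.

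Mmp13 had overlapping groups over all 8 tumours, but was lower with PLX3397 inside each Ddx3y stratum. It stood at 129, 37.5, 251 and 711 CPM in vehicle tumours 1 to 4 and 27.8, 33.2, 189 and 147 in PLX3397 tumours 1 to 4. Tumours without Ddx3y were the higher in both groups, and within each stratum both treated tumours were below both vehicle tumours, at means of 30.5 against 83.3 CPM with Ddx3y and 168 against 481 without. Of all genes tested, 3.71% were lower in this way in both strata, and Mmp13 was the 1 member of 10. The split into strata was added after the values were seen. Over all 8 the groups overlapped and the log2 fold change was -1.51 (SE 0.94, edgeR adjusted p = 1), and -0.46 without vehicle tumour 4. The edgeR fit with the presence of Ddx3y as an added term also called no member.

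Mmp3 went the other way. It stood at 10.9, 8.67, 10.8 and 26.8 CPM in vehicle tumours 1 to 4 and 26.2, 43.0, 55.8 and 35.8 in PLX3397 tumours 1 to 4. Of 4 treated tumours, 3 were above every vehicle tumour, and the overlap was between vehicle tumour 4 and PLX3397 tumour 1. The log2 fold change was 1.49 (SE 0.40, edgeR adjusted p = 0.659; DESeq2 adjusted p = 0.036), and stayed between 1.29 and 2.01 with 1 library left out. In both Ddx3y strata the treated tumours were above the vehicle tumours, at means of 34.6 against 9.78 CPM and 45.8 against 18.8. Of all genes tested 1.41% did so, and Mmp3 was the 1 member of 10. This split, too, was added after the values were seen. Mmp10, which shares 8.37% of its 50-base words with Mmp3, stood at 13.5, 6.75, 10.1 and 20.9 CPM with vehicle and 10.7, 17.8, 20.1 and 25.04 with PLX3397 (0.52, SE 0.38, edgeR adjusted p = 1).

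Mmp14 and the inhibitors differed by less than the spread between tumours. Mmp14 averaged 464 ± 121 CPM with vehicle and 424 ± 150.0 with PLX3397 (SD, n = 4 each), Timp1 318 ± 165 and 284 ± 70.4, Timp2 522.5 ± 87.6 and 537 ± 200.5, and Timp3 505 ± 125 and 461 ± 241. Their log2 fold changes lay between -0.17 and 0.04, and each changed sign when at least 1 library was left out. PLX3397 tumour 2 was the highest of its group for Mmp14, Timp2 and Timp3. Of the wider lists, none of 14 other MMP and TIMP genes, 14 ADAM and ADAMTS proteases, 17 activators, inhibitors and partners, 18 matrix substrates and 18 AP-1 genes and inducers tested was called by edgeR. Fos, a subunit of AP-1, was the one list gene whose groups did not overlap: 18.9 to 28.4 CPM with PLX3397 and 11.9 to 15.9 with vehicle (0.70, SE 0.19, edgeR adjusted p = 0.646). DESeq2 called 1 gene of these 5 lists.

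**Figure D3:**
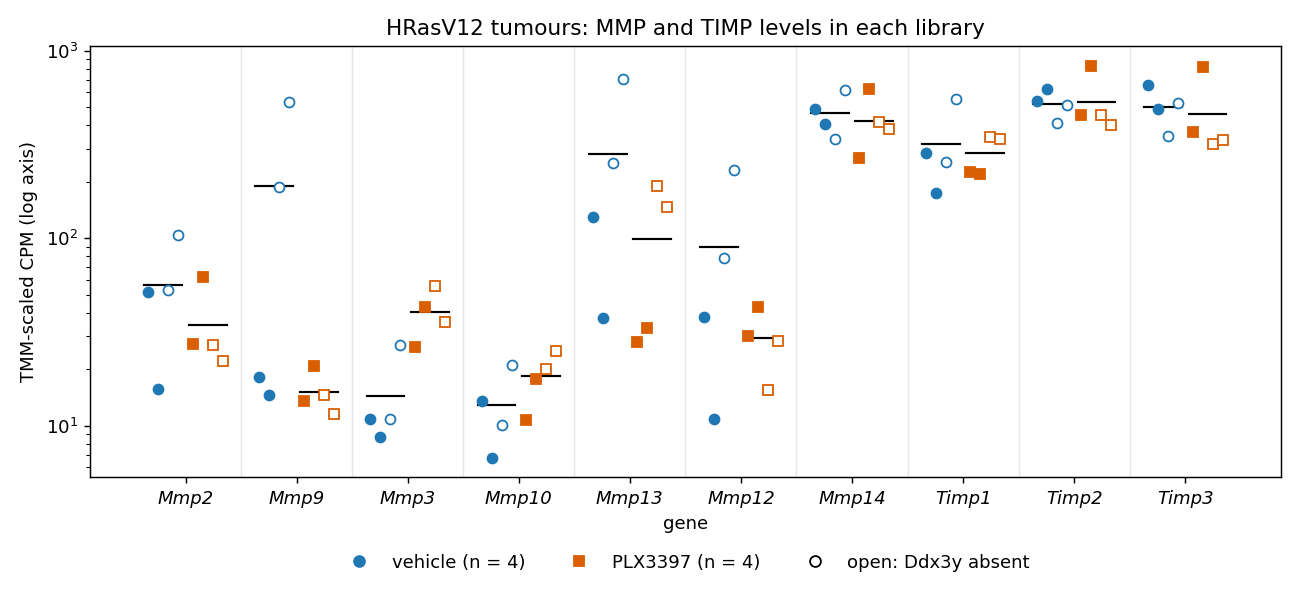
TMM-scaled CPM (log axis) of the 10 members in each Ras tumour, vehicle as circles and PLX3397 as squares, with group means as bars; open symbols are tumours with Ddx3y below 1 CPM. Mmp9 is high in vehicle tumours 3 and 4 alone, at 188 and 535 CPM, and Mmp3 lies at 26.2 to 55.8 CPM with PLX3397 against 8.67 to 26.8 with vehicle.

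In CD11b+ cells of PDGFB tumours, after 3 days of PLX3397, 3 members passed edgeR's test: Timp3 and Mmp3 rose and Mmp13 fell. Over all 15052 genes tested 956 (6.35%) were called, 688 higher (4.57%) and 268 lower (1.78%). DESeq2 called 1968 (13.1%), and of the members also Timp1 and Timp2, 5 in all. The median log2 fold change was 0.47 over the 10 members and 0.0066 over all genes. With 2 libraries against 1, the fit assumes that the lone vehicle library varies like the others, and only 1 residual degree of freedom stands behind it.

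Timp3 stood at 43.1 CPM with vehicle and 164 and 214 with PLX3397 (log2 fold change 2.13, SE 0.24, edgeR adjusted p = 0.0345). Timp1 stood at 20.8 CPM with vehicle and 70.3 and 154 with PLX3397 (2.43, SE 0.54, edgeR adjusted p = 0.07), and Timp2 at 379 with vehicle and 775 and 607 (0.87, SE 0.24, edgeR adjusted p = 0.0978). All 3 inhibitors were higher in both treated libraries, as were 41.6% of all genes tested, and only Timp3 of the 3 was called by edgeR. Summed per kilobase the inhibitors came to 1.03 and 0.876 times the 7 proteases, against 0.21 in the 1 vehicle library.

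Of the proteases, Mmp3 stood at 1.70 CPM with vehicle and 11.2 and 22.0 with PLX3397 (3.28, SE 0.56, edgeR adjusted p = 0.0483), on 51 counts in the vehicle library. Mmp10 was also higher in both treated libraries, at 4.73 and 9.09 CPM against 2.80 (1.30, SE 0.52, edgeR adjusted p = 0.185). Mmp13 fell from 676 CPM with vehicle to 162 and 255 (-1.70, SE 0.30, edgeR adjusted p = 0.0498). Mmp9 stood at 194 CPM with vehicle and 26.9 and 123 with PLX3397 (-1.37, SE 0.82, edgeR adjusted p = 0.334), and Mmp12 at 896, 374 and 761 in the same order (-0.66, SE 0.44, edgeR adjusted p = 0.382). The treated libraries differed more from each other in Mmp9 and Mmp12 than the nearer one differed from vehicle. Mmp14 (759.9, 709.7 and 665 CPM) and Mmp2 (135, 143 and 139) moved least. Both treated libraries lay on the same side of the vehicle library for each of the 10 members, 6 higher and 4 lower, but with 1 vehicle library so did 41.6% of all genes on the higher side and 42% on the lower.

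Marker sums of several other cell types differed between the CD11b+ libraries, in both directions. Summed fibroblast markers were 168 CPM with vehicle and 644 and 1103 with PLX3397, pericyte markers 46.1, then 108 and 172, and astrocyte markers 129, then 729 and 685. Of these lists 3 of 7, 1 of 8 and 6 of 8 genes were called higher, against 4.57% of all genes. None of their genes was at 0 in any of the 3 libraries. Also called higher were 4 of 8 oligodendrocyte precursor, 4 of 8 neuron, 3 of 8 oligodendrocyte and 1 of 8 endothelial markers. Their median log2 fold changes were 2.77, 2.12, 1.8 and 1.37, against 2.46 for fibroblast, 1.38 for pericyte and 2.16 for astrocyte markers. Summed microglia markers were 3059 CPM with vehicle and 2992 and 2227 with PLX3397, and monocyte-derived macrophage markers 6628, 3460 and 6126. Neutrophil markers were 305 with vehicle and 499 and 776 with PLX3397, with none of their 8 genes called. Dividing-cell markers were lower, at 1372 CPM with vehicle and 393 and 509.8 with PLX3397, with 5 of 8 genes called lower. NK cell markers stood at 48.8 CPM with vehicle and 17.1 and 25.1 with PLX3397, and erythroid markers at 30.1, then 2.47 and 15.2. T cell and B cell markers were at most 8.46 CPM in every library. In the 10x library, from another tumour type and platform, the cluster led by Rgs1 and Chil3 had Timp3 at 2.81 CPM and Mmp3 at 0. The Igfbp7 and Mgp cluster had them at 214.5 and 16.4. Its Mmp3 level rests on 27 UMIs, and about as many lay in the Lcn2 and Crispld2 cluster. The part of any of these cells in the member values was not tested.

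Of the genes around the family, a minority of each list was called in the CD11b+ cells, against 4.57% of all genes called higher. Of 12 other MMP and TIMP genes tested, 2 were called higher: Timp4, the fourth inhibitor (3.79, SE 0.52, edgeR adjusted p = 0.0362), and Mmp11 (2.26, SE 0.38, edgeR adjusted p = 0.0456). Of 14 ADAM and ADAMTS proteases, Adamts1 (1.2) and Adamts5 (2.92), which cut proteoglycans, were called higher. Of 17 activators, inhibitors and partners 4 were called higher, among them the general protease inhibitor A2m (3.87), Lcn2, whose protein binds Mmp9 (3.06), and the plasminogen activator Plat (2.25). Of 18 matrix substrates 4 were called higher, Col6a1, Col3a1, Lama4 and Col5a1, by 2.35 to 2.54, and of 18 AP-1 genes and inducers 1, Tgfb2 (1.96). None of these 5 lists had a gene called lower, and the median log2 fold changes ran from 0.064 for the AP-1 list to 2.29 for the matrix substrates.

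**Figure D4:**
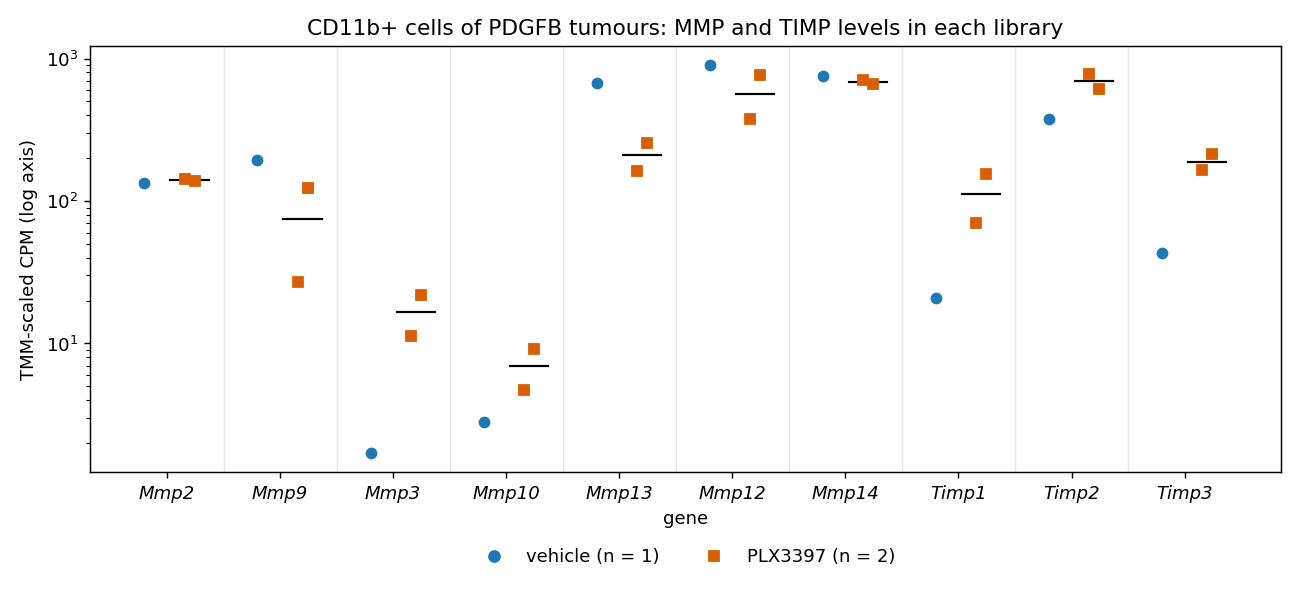
TMM-scaled CPM (log axis) of the 10 members in the CD11b+ cells of PDGFB tumours, with the 1 vehicle library as a circle, the 2 PLX3397 libraries as squares and their mean as a bar. Mmp13 is lower and Mmp3, Timp1, Timp2 and Timp3 are higher in both PLX3397 libraries than in the vehicle library.

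The lines asked whether tumour cells of the 2 drivers differ on their own; driver and medium cannot be told apart. Of 17475 genes tested, edgeR called 0 (0%), hence no member, with 2842 (16.3%) at an unadjusted p under 0.05, among them 5 of the 9 members tested (Mmp2, Mmp3, Mmp14, Timp1 and Timp3). DESeq2 called 2110 (12.1%), of which 4 were members: Mmp3, Mmp14, Timp1 and Timp3. Groups did not overlap for 4 members in the higher direction and 1 in the lower, against 17.9% and 20.6% of all genes. Mmp13 was too low to be tested, with 2 to 14 counts a library.

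Ras line 1 carried most of the difference. Mmp3 stood at 180 CPM in Ras line 1, 0.18 in Ras line 2, and 0, 0.061 and 0.59 in PDGF lines 1 to 3. Mmp10 followed the same line, at 12.8 CPM against 0.061 in Ras line 2 and at most 1.42 in the PDGF lines. For Mmp14, Ras line 1 reached 642.5 CPM, whereas Ras line 2 (20.7) lay among the PDGF lines (8.19 to 38.5). Ras line 1 also differed in marker RNA: summed endothelial markers were 54.3 CPM against at most 8.70 in the other lines, and monocyte-derived macrophage markers 3951 against at most 155, of which Fn1, also a matrix gene, made up 3904. Ddx3y stood at 1.27 and 63.6 CPM in Ras lines 1 and 2, and at 0.52, 29.9 and 54.0 in PDGF lines 1 to 3. Xist stood at 1144 and 1.38 CPM, and at 1240, 27.7 and 3.08, in the same order. The part of these 2 genes and of the markers was not tested. Without Ras line 1 the log2 fold changes of Mmp3 (8.67), Mmp10 (3.59) and Mmp14 (3.84) became -0.23, -3.04 and -0.16, and without Ras line 2 the edgeR test called 2111 genes, Mmp3 and Mmp14 among them.

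Timp1 and Timp3 were higher in both Ras lines than in any PDGF line. For Timp1 the Ras lines had 93.3 and 23.7 CPM and the PDGF lines 1.59, 0.18 and 4.98 (4.70, SE 1.39, edgeR adjusted p = 0.243; DESeq2 adjusted p = 0.00452). Timp3 stood at 354 and 53.4 against 37.6, 13.9 and 47.8 (2.62, SE 0.92, edgeR adjusted p = 0.283), and without Ras line 1 the log2 fold change was 0.69; that of Timp1 was then 3.39. Timp2 was even across the PDGF lines, at 283, 279.7 and 338 CPM, and the Ras lines lay either side of them at 542 and 122.5 (0.15, SE 0.62, edgeR adjusted p = 0.928). Mmp2 and Mmp9 were at most 3.41 and 1.09 CPM in any line, against 15.6 and 11.5 CPM or more in every Ras tumour, counted in a separate table. Mmp12 was at 19.1 CPM in PDGF line 3 and at most 0.40 in the other 4, and PDGF line 3 also had the most pan-myeloid marker RNA, 72.9 CPM against at most 9.81. That part was not tested.

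Of the wider lists no gene was called by edgeR in the lines. The proteoglycan-cutting Adamts4 was even within each driver, at 108 and 103 CPM in the Ras lines and 12.5, 13.2 and 10.6 in the PDGF lines (3.12, SE 0.19, edgeR adjusted p = 0.12). Among the activators and partners, Cd44, which holds active Mmp9 at the cell surface (3.91, SE 0.62, edgeR adjusted p = 0.205), and Plaur, the receptor of the plasminogen activator urokinase (5.40, SE 1.27, edgeR adjusted p = 0.222), were higher in both Ras lines than in any PDGF line. So were the matrix genes Lamb1 (6.82) and Fn1 (6.17) and, of the AP-1 list, Fosb (3.53), Jun (1.05) and Fosl1 (3.34), whereas Fos was lower (-2.43, SE 0.74, edgeR adjusted p = 0.25). The median log2 fold change was 2.62 over the 9 members tested and 1.75 over 17 matrix substrates.

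**Figure D5:**
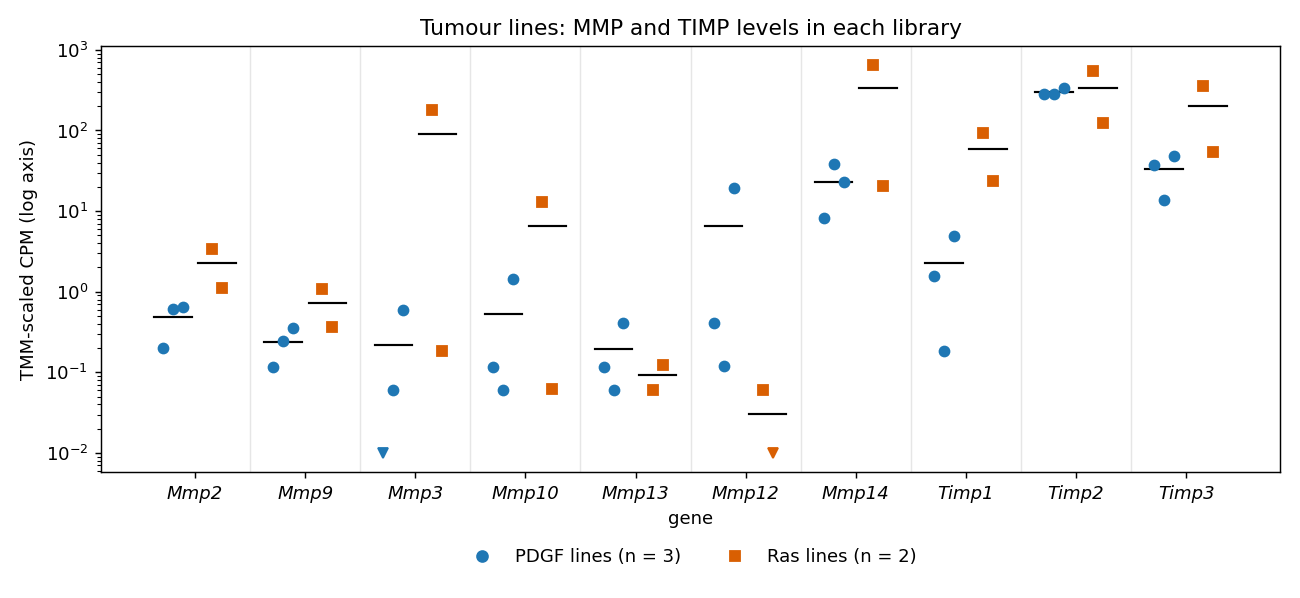
TMM-scaled CPM (log axis) of the 10 members in each tumour line, PDGF lines as circles and Ras lines as squares, with group means as bars; triangles at the foot of the axis mark libraries with 0 counts. Ras line 1 stands far above Ras line 2 for Mmp3, Mmp10 and Mmp14, and both Ras lines lie above the PDGF lines for Timp1 and Timp3.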

How the data were processed

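Bulk values were raw gene counts, deposited by the authors in 3 tables. UMI counts per gene and barcode came from 1 10x matrix and 1 Drop-seq table, as deposited. Per the submitters' processing notes, the tools included featureCounts 1.6.2, STAR 2.6.1e, Cell Ranger, cutadapt 1.9.1, Trim Galore 0.4.2 and FastQC 0.11.7, and the build was GRCm38/mm10. The strand setting of the counting is not given in the sources used here. The gene spans of Mmp12, Timp1 and Timp3 overlap those of opposite-strand neighbours (Mmp1b, Syn1 and Syn3); whether reads were shared was not tested. Cep295nl overlaps Timp2 on the same strand.

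Rows without a gene name or with a name turned into a date were left out (at most 0.36% of a library), and 5 columns of the line table that matched no sample here were not used. Each table was fitted by itself in edgeR 4.0.16 (R 4.3.3): filterByExpr, TMM, quasi-likelihood F test with robust estimation, Benjamini-Hochberg over all genes tested, called under 0.05. DESeq2 1.42.0 was an alternative. The code was tested on simulated counts. Replicates are separate samples by label, and p-values measure the spread between them.

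Barcodes with over 20% mitochondrial UMIs were left out, as were 10x barcodes under 500 UMIs or 300 genes and Drop-seq barcodes under 300 UMIs or 200 genes. The rest were clustered in scanpy 1.11.5 (2000 variable genes, 30 components, Leiden resolution 0.5). Scrublet marked 0 doublets, so doublets were not removed. Clusters with markers of several classes keep their 2 leading genes as names. Floors are 3 counts of the total.

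The members and the lists were chosen with earlier results of these data known. All members are named. Other genes are the up to 4 of a list with the smallest p in a comparison, and the 3 most like a member over clusters, apart from genes used as checks. One gene of the lists is not reported here.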

Additional observations from a re-analysis of the deposited data

Results flagged for a closer look

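Within the groups of 4 Ras tumours, 20 sets of values were examined and 4 held a library whose gap to the next, as a share of the range, passed Dixon's 95% critical value. Chance alone flags about 1 in 20 such sets. PLX3397 tumour 2 accounted for 3 of them: Mmp2 at 62.1 CPM (next 27.1, gap 0.874), Timp2 at 835.5 CPM (next 455, gap 0.882) and Timp3 at 822 CPM (next 369, gap 0.902). The remaining one was Mmp3 in vehicle tumour 4, at 26.8 CPM (next 10.9, gap 0.878), the only vehicle library to reach the PLX3397 range for that gene. PLX3397 tumour 2 also had the most summed fibroblast markers of its group, 4652 CPM against 1366 to 1998, and whether these move the members was not tested.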

How the results depend on the processing

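Counts of calls moved with the test. DESeq2 called 169, 1968 and 2110 genes in the Ras tumours, CD11b+ cells and lines, with 2, 5 and 4 members, against 0, 956 and 0 genes and 0, 3 and 0 members by edgeR. Without the filter on low counts edgeR called 1, 1907 and 1 genes. RLE scaling and the fit without robust estimation changed none of these counts by over 1.5 times, nor did the Ddx3y term in the Ras tumours. With 1 library left out in turn, the Ras tumours gave 0 to 0 genes and members, and the lines 0 to 2111 genes and 0 to 2 members, the highest without Ras line 2. In the CD11b+ cells leaving out a PLX3397 library leaves no residual degrees of freedom, so only fold changes could be had (Timp3 1.94 to 2.32, Mmp3 2.73 to 3.70, Mmp13 -2.05 to -1.40), and without the vehicle library there is no comparison.

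Signs turned for small changes when 1 Ras tumour was left out. Timp2 ran from -0.26 (without PLX3397 tumour 2) to 0.15, Mmp14 from -0.39 to 0.066 (without vehicle tumour 4; 0.034 without PLX3397 tumour 1), Timp3 from -0.57 to 0.052 (without vehicle tumour 1; 0.0088 without PLX3397 tumour 3), and Timp1 from -0.37 to 0.27 (without vehicle tumour 4). Timp2 was also below 0 without vehicle tumour 3 (-0.061). In the lines the lowest values came without Ras line 1 and the highest without Ras line 2: Mmp3 -0.23 to 9.65, Mmp10 -3.04 to 4.56, Mmp14 -0.16 to 4.77 and Timp2 -1.29 to 0.83. The cause was not tested.

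With the replicate number as a block, edgeR called 0 genes and 0 members in the Ras tumours (690 unadjusted) and 0 and 0 in the lines, and Timp2 became -0.0096 and -0.13. Deviations of same-numbered Ras tumours correlated at 0.114, 0.132, -0.42 and 0.45, and those of unlike-numbered ones at -0.726 to 0.591. These values do not settle whether the numbers pair samples. Same-numbered lines gave -0.177 and -0.107, which cannot decide it, because deviations of only 2 Ras lines mirror each other. No paired analysis was possible in the CD11b+ cells, whose groups share only 1 replicate number.

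Of 57 single-cell values recomputed under other cell filters, resolutions or without the deepest barcodes, 20 left their counting interval and 5 moved by over 1.5 times: Mmp12 in the Rgs1 and Chil3 cluster (132 without the deepest barcodes), Timp1 in the Nppb and Nefl cluster (1784 with at least 1000 UMIs, where the matched cluster of 585 barcodes shares 149 of the 254), and, in the Drop-seq Scg2 cluster, Mmp3 (0 and 17.2) and Timp1 (907).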

Other observations

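Other members of both families were plentiful in the 10x library and were highest in other clusters than most of the 10 followed here. They were named after their values were seen. Mmp15 and Mmp16, membrane-type proteases like Mmp14, had 7221 and 5060 UMIs and were both highest in the cluster led by Trnp1 and Matn4, at 196.5 and 162 CPM, with 30.6% and 36.0% of their UMIs there. Mmp17, anchored to the membrane by a lipid, was highest in the same cluster, at 25.1 CPM. Mmp19 was highest in the cluster led by Rgs1 and Chil3, at 23.0 CPM with 40.9% of 301 UMIs. Timp4 was highest in the cluster led by Lcn2 and Crispld2, at 69.2 CPM with 19.2% of 2396 UMIs, and the general protease inhibitor A2m in the same cluster, at 277.5 CPM with 45.4% of 4057 UMIs. Drop-seq placed Mmp15 and Timp4 elsewhere, both highest in the cluster led by Igkc and Ighm, at 156.5 and 94.1 CPM. Each value comes from 1 library and carries no test.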
